A study of Mus musculus with 8 samples.

Results

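The 7 genes described here, Tal1, Lyl1, Lmo2, Gata2, Runx1, Erg and Fli1, encode the transcription factors known as the heptad of haematopoietic stem cells (HSCs). They were chosen by name, and every peak that touched a gene body or the 50 kb on either side of it was taken, on the mouse build mm10. These windows were 7 of the windows of 21631 protein-coding genes, they spanned 1329012 bp in all, and they held 1697 of the 867023 peaks in the 8 deposited lists. The lists came from CUT&RUN, in which an antibody guides a nuclease to nucleosomes that carry a histone mark and the freed DNA is sequenced. The cells were HSCs of C57BL/6 mice about 10 months old, sorted as Lin-cKit+Sca1+CD48-CD150+, with the cells of 4 or 5 mice pooled and 7500 cells per assay. The RXRKO mice lacked both Rxra and Rxrb, which encode retinoid X receptors, in blood cells (VavCre+, RxRaΔ/Δ, RxRbΔ/Δ). The Cre was driven by the Vav promoter, which is active across blood cells and their stem cells. The WT mice were listed with floxed Rxra and Rxrb in the design text and with VavCre+ in the sample labels. Because these sources disagree, whether both genotypes carried the Cre is not settled.

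Within each genotype, H3K4me1 was mapped in 2 libraries and H3K4me3 and H3K27ac in 1 library each. H3K4me1 marks enhancers and the flanks of promoters, H3K4me3 marks promoters and some strong enhancers, and H3K27ac marks promoters and enhancers in use. Whether replicate libraries were made from different pools of mice is not stated in the labels, and p-values then measure only the spread between libraries, which may be technical. The lists held 147698 to 165128 H3K4me1 peaks, 47835 (WT) and 58136 (RXRKO) H3K4me3 peaks, and 74287 (WT) and 64849 (RXRKO) H3K27ac peaks. The sequencing depth is unknown, so a mark that was not called may have been missed rather than lost. In Rxrb, a stretch of 781 bp was covered in both WT H3K4me1 lists and by no peak of the 4 RXRKO lists. In Rxra the longest such stretch was 76 bp, against 340 bp for the reverse, so a long stretch missing from RXRKO was seen at Rxrb and not at Rxra. Of 10 HSC marker genes, 10 had an H3K4me3 peak within 1 kb of a start in both genotypes (66.6% of all 21631 genes). H3K27ac was called there in both genotypes for 5 of the 10 (56.7% of all genes). H3K4me3 was called in both for 0 of 4 B-cell, 1 of 4 T-cell and 0 of 5 granulocyte and monocyte markers. It was also called in both for 3 of 5 erythroid, 4 of 5 endothelial and 3 of 4 stromal markers. In the order given, H3K27ac was called in both for 0, 1, 1, 3, 4 and 2 of these markers. The part of such cells in the results was not tested.

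The heptad factors bind DNA together at a large set of blood enhancers and also regulate each other. TAL1 and LYL1 are closely related basic helix-loop-helix proteins that bind E-boxes, and LMO2 is a bridging protein without DNA contact of its own that joins them to GATA2. GATA2 is a zinc-finger factor needed for stem cells to form and persist, RUNX1 is a runt-domain factor needed for blood to arise from endothelium, and ERG and FLI1 are ETS factors. RXRα and RXRβ are nuclear receptors that act mostly as partners of other nuclear receptors. On mm10, Tal1 lies at chr4:115056426-115071755, Lyl1 at chr8:84701423-84704716, Lmo2 at chr2:103957903-103981878 and Gata2 at chr6:88193891-88207032. Runx1 lies at chr16:92601466-92826074, Erg at chr16:95359169-95586600 and Fli1 at chr9:32422204-32543432.

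Several heptad genes have more than 1 start, and the marks were spread unevenly over them. The sequences around the starts of Erg, Gata2 and Runx1 are shown because starts of the same gene differed in the marks they carried or in the length of H3K27ac. They run from 250 bases before to 50 bases after the start, 5′ to 3′ on the gene's own strand, and were taken from RefSeq on GRCm38.p6, the assembly that mm10 names. Of the 7 genes, 5 are in the promoter table, with 10 starts in all. Capitals mark matches on either strand to motifs bound by heptad families. The motif for GATA factors was AGATAA or TGATAA, the E-box was CANNTG, which reads alike on both strands, the ETS motif was GGAAG and the RUNX motif was TGTGGT. Overlapping matches were each counted. The Erg windows are chr16:95586544-95586843 for the outer start, chr16:95530316-95530615 for the middle start and chr16:95459299-95459598 for the inner start, all on the minus strand. The Gata2 windows are chr6:88193641-88193940 for the outer and chr6:88198414-88198713 for the inner start, on the plus strand. The Runx1 windows are chr16:92826025-92826324 for the distal and chr16:92697280-92697579 for the proximal start, on the minus strand.
Erg outer start: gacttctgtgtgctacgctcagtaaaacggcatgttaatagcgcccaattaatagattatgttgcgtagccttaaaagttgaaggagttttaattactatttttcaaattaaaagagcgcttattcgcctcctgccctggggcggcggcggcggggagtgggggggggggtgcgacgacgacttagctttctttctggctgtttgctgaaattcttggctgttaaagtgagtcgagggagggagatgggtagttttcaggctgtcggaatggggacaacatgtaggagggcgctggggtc
Erg middle start: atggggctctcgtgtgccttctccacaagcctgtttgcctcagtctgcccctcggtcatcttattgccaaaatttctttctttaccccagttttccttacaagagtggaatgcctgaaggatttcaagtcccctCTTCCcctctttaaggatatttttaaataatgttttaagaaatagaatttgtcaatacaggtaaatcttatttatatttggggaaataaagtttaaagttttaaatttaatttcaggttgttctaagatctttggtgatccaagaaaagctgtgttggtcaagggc
Erg inner start: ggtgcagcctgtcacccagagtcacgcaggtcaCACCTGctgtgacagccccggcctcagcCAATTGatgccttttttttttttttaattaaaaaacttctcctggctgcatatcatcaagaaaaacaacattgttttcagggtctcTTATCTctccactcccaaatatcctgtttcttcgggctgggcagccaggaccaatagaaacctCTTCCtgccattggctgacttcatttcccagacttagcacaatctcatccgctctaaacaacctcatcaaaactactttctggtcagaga
Gata2 outer start: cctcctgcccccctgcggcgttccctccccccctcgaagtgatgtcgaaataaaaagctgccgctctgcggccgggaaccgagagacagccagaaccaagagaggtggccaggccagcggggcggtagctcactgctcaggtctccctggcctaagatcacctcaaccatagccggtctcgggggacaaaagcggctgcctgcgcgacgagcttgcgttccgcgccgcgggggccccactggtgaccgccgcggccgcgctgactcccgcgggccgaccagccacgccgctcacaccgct
Gata2 inner start: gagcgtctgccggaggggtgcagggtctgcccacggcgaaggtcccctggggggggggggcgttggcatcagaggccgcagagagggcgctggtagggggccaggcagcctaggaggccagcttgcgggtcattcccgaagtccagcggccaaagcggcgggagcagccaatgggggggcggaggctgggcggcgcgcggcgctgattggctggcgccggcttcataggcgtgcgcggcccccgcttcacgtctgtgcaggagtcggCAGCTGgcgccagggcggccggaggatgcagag
Runx1 distal start: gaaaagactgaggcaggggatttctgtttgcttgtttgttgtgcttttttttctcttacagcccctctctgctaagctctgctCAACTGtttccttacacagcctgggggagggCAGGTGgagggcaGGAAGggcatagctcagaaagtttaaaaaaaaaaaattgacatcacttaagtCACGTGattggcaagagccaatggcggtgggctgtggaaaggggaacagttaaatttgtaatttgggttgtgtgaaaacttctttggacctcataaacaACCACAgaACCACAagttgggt
Runx1 proximal start: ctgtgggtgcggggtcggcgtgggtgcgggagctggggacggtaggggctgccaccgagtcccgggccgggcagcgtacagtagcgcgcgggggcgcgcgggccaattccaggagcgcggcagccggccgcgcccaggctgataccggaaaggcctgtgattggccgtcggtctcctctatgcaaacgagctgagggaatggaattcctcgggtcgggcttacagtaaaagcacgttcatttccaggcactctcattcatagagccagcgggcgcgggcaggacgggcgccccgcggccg

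The distal Runx1 start held 3 E-boxes, 1 ETS match and 2 RUNX matches, the latter 28 to 33 and 36 to 41 bases after the start. The proximal Runx1 start held none of the motifs. At Erg the outer start held none, the middle start 1 ETS match, and the inner start 2 E-boxes, 1 ETS and 1 GATA match. At Gata2 the outer start held none and the inner start 1 E-box. GATA matches were present in 2 of the 10 heptad promoters against 18.6% of the 32851 RefSeq promoter windows of 300 bases, E-boxes in 5 against 72.3%, ETS matches in 5 against 71.4% and RUNX matches in 1 against 16.8%. These are descriptions of letters, and no binding was measured.

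At the starts themselves, H3K4me3 was called in both genotypes for 7 of the 7 genes (66.6% of all 21631 genes), and H3K27ac for 6 of the 7 (56.7% of all genes), the exception being Gata2. Lmo2 and Fli1, like other genes absent from the promoter table, had their start chosen by H3K4me3 in these lists, which favours the H3K4me3 call. The lengths that follow are base pairs covered within 1 kb of a start. At the outer Erg start H3K4me3 covered 1189 bp in WT and 1213 bp in RXRKO, and H3K4me1 covered 1028 to 1148 bp over its 4 lists. H3K27ac covered only 162 bp there in WT and 0 in RXRKO. The inner Erg start carried H3K4me3 over 1030 bp in WT and 978 bp in RXRKO, with H3K27ac over 1156 bp in WT and 356 bp in RXRKO. At the middle Erg start no list had a peak within 1 kb. Erg was thus marked at its outer and inner starts, and H3K27ac was the mark whose length differed most between the genotypes there.

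The outer Gata2 start carried H3K4me3 over 978 bp in WT and 983 bp in RXRKO and no H3K27ac in either genotype. At the inner Gata2 start H3K4me3 covered 1703 bp in WT and 1761 bp in RXRKO, and H3K27ac covered 701 bp in WT and 0 in RXRKO. The WT H3K27ac there consisted of 2 short peaks with the authors' folds over background of 2.01 and 2.10. Both Runx1 starts carried all 3 marks in all lists. At the distal Runx1 start H3K27ac covered 1353 bp in WT and 1355 bp in RXRKO, and at the proximal start 1433 bp in WT and 738 bp in RXRKO. The other genes were alike in the calls: Tal1, Lyl1, Lmo2 and Fli1 had H3K4me3 and H3K27ac at a start in both genotypes. For Lmo2 and Fli1, which are named here without a promoter sequence, the start was taken as the gene end with more H3K4me3.

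The H3K4me3 element at a heptad start was broad at some genes and narrow at others. Overlapping H3K4me3 peaks of both genotypes were merged, and the longest merged element within 1 kb of a start was compared with that of all 14739 genes that had one (median 1638 bp). It measured 2789 bp at Tal1, longer than at 94.5% of these genes, 2705 bp at Erg (93.5%), 2532 bp at Lyl1 (90.7%) and 2341 bp at Runx1 (86.3%). It measured 1808 bp at Gata2 (61.9%), 1540 bp at Fli1 (42.5%) and 1147 bp at Lmo2 (15.0%). The measure depends on the starts listed. Erg had 3 starts, while Lyl1, Lmo2 and Fli1 had 1 each, and those of Lmo2 and Fli1 were inferred gene ends. Any other start of Lmo2 or Fli1 was not searched. Lmo2 also carried H3K4me3 and H3K27ac about 11 kb inside the gene, where its merged H3K27ac element spanned 1581 bp in both genotypes together (chr2:103968257-103969837).

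The length covered by called peaks in each window is the quantity compared next. It counts bases inside peaks and not the strength of a mark. As a share of its window, H3K4me1 cover averaged over libraries ran from 9.44% at Erg to 19.7% at Lyl1, against a median of 7.80% over all genes. The window of Lyl1, a short gene between Trmt1 and Nfix, stood above 99.0% of genes for H3K4me1 and above 99.8% for H3K4me3. It also overlaps Ier2 and Nacc1. Within 1 kb of the Lyl1 start, H3K4me3 covered 1004 of the window's 19004 bp in WT and 957 of 19862 bp in RXRKO. These ranks thus describe the window and not Lyl1 alone. Tal1 stood above 97.1% of genes for H3K27ac, with 9.20% of its window covered, and Lyl1 above 95.7%. Erg and Runx1, the longest of the 7 genes, had 3.22% and 4.51% of their windows covered by H3K27ac and stood above 50.6% and 66.2% of genes. For each of the 3 marks, these were the lowest shares of the 7 genes.

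**Figure D1:**
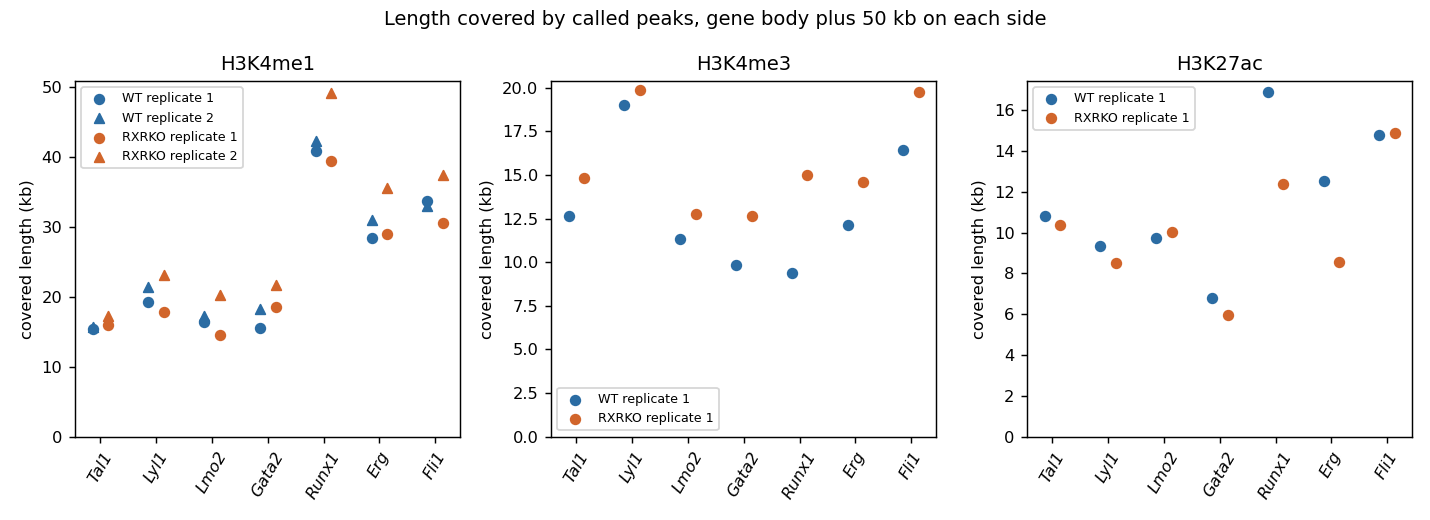
Length covered by called peaks (kb) in each heptad window, by mark, with 1 point per library, WT in blue and RXRKO in orange; circles are replicate 1 and triangles replicate 2. RXRKO lies above WT for H3K4me3 in all 7 windows, and Runx1 and Erg show the widest gaps for H3K27ac, with WT above.

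For H3K4me1, the mark with replicates, no heptad window passed the adjusted threshold of limma, and Gata2 had the largest difference. At Tal1, the helix-loop-helix factor, H3K4me1 covered 15333 and 15698 bp in WT replicates 1 and 2 and 15950 and 17261 bp in RXRKO. Both RXRKO values lay above both WT values before any scaling. At Lyl1, its close relative, the values were 19218 and 21431 bp in WT and 17761 and 23082 bp in RXRKO, and the groups overlapped. At Lmo2, the bridging protein, they were 16436 and 17212 bp in WT and 14525 and 20269 bp in RXRKO, again overlapping. At Gata2 they were 15494 and 18160 bp in WT and 18485 and 21632 bp in RXRKO, with no overlap. At Runx1 they were 40800 and 42250 bp in WT and 39326 and 49067 bp in RXRKO. Erg had 28361 and 30937 bp in WT and 28879 and 35468 bp in RXRKO. Fli1 had 33725 and 32912 bp in WT and 30520 and 37416 bp in RXRKO, and the groups overlapped at all 3 of these genes. In all 7 windows the highest value came from RXRKO replicate 2, the list with the longest cover genome-wide (133.3 Mb, against 109.8 to 117.8 Mb in the other 3). The share of all genes without overlap in these unscaled lengths was not computed. The lack of overlap at Tal1 and Gata2 is therefore not read as a result about these genes.

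After log2 of the length plus 1000 bp and centring of each library on its median gene, limma called 0 of 18650 genes (Benjamini-Hochberg adjusted p under 0.05; 1195 genes, 6.41%, had an unadjusted p under 0.05), and 0 of the 7. The smallest adjusted p of any gene was 0.112. Of the heptad differences 4 were above 0 and 3 below, with a median of 0.025 against 0.0018 over all genes. Gata2 had the largest, 0.19 (log2, RXRKO minus WT; SE 0.066; unadjusted p = 0.0180 and adjusted p = 0.607 by limma), above 94.4% of genes. It was -0.35 when only peaks with an authors' fold of at least 4 were used, and 0.12 to 0.25 when single libraries were left out. The other 6 lay between -0.058 (Lyl1) and 0.053 (Erg), with adjusted p of 0.963 to 0.993 by limma. According to the tags in the peak names, the replicate 1 libraries shared a sequencing run and the replicate 2 libraries shared a different one, so each run gives its own difference. For Gata2 it was 0.26 in replicate 1 and 0.11 in replicate 2. At Lmo2 (-0.15 and 0.098), Fli1 (-0.12 and 0.054) and Runx1 (-0.035 and 0.085) it changed sign between the runs. With the replicate number as a block, limma called 486 genes (2.61%) and still 0 of the 7, and the adjusted p of Gata2 was 0.0808. The blocked fit of 4 libraries leaves each gene little spread of its own, so its p-values rest mainly on a spread shared over genes.

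**Figure D2:**
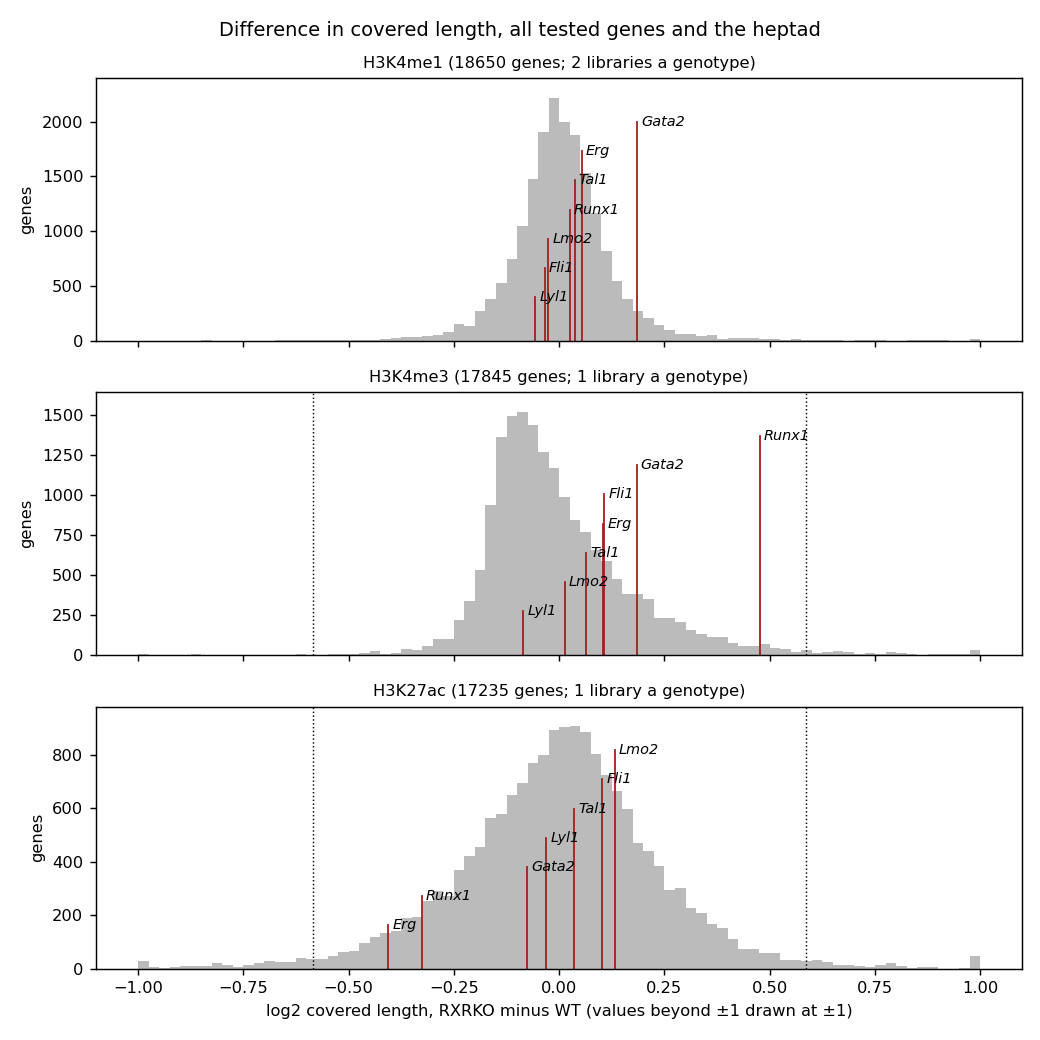
Histograms of the log2 difference in covered length, RXRKO minus WT, over all tested genes for each mark, with the 7 heptad genes as red lines; dotted lines mark 1.5-fold for the marks with 1 library a genotype, and values beyond 1 in size are drawn at the edge. Gata2 stands at 0.19 for H3K4me1, Runx1 at 0.48 for H3K4me3, and Erg at -0.41 and Runx1 at -0.33 for H3K27ac.

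H3K4me3 cover was longer in the RXRKO list at all 7 genes before centring, as was the list as a whole (53.8 against 45.5 Mb). With 1 library per genotype there is no test, and a difference of at least 1.5-fold after centring was counted. No heptad gene passed it, beside 190 of 17845 genes (1.06%) longer and 18 (0.101%) shorter in RXRKO. Runx1 came closest, with 9394 bp in WT and 15001 bp in RXRKO, a centred log2 difference of 0.48 (1.39-fold) that exceeded 97.9% of genes. Without centring Runx1 was past the threshold, at 0.62, with equal numbers of top peaks from each list it was 0.32, with a -log10 q of at least 5 it was 0.26, and with a fold of at least 4 it was 0.088. Gata2 had 9865 bp in WT and 12655 bp in RXRKO (0.18). Tal1 had 12673 and 14805 bp (0.063), Fli1 16439 and 19779 bp (0.11), Erg 12126 and 14616 bp (0.10), Lmo2 11329 and 12769 bp (0.013), and Lyl1 19004 and 19862 bp (-0.086), WT first. The median of the 7 was 0.10 against -0.037 over all genes.

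H3K27ac cover was shorter in the RXRKO list at Runx1 and Erg and close to the WT length at the other 5. Runx1 had 16890 bp in WT and 12393 bp in RXRKO, a centred log2 difference of -0.33, and 8.03% of genes had a lower value. Erg had 12515 and 8576 bp, a difference of -0.41, with 4.85% of genes lower. Neither reached 1.5-fold, which 241 of 17235 genes (1.4%) passed as longer and 294 (1.71%) as shorter in RXRKO. Both stayed below 0 under each alternative that could be computed, between -0.42 and -0.13 for Runx1 and between -0.50 and -0.39 for Erg. Gata2 had 6821 bp in WT and 5964 bp in RXRKO (-0.076), which ran from -0.84 with its gene body alone, past 1.5-fold, to 0.47 with only those peaks whose fold reached 4. Lyl1 had 9349 and 8507 bp (-0.031) and Tal1 10836 and 10391 bp (0.036). Fli1 had 14774 and 14903 bp (0.10) and Lmo2 9728 and 10036 bp (0.13). The median of the 7 was -0.031 against 0.0058 over all genes. Runx1 and Erg both lie on chromosome 16, and the H3K27ac list as a whole was shorter in RXRKO (44.6 against 47.1 Mb). The log2 differences above were taken after centring each list, and the part of the chromosome or of list size was not tested.

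To see which single sites made up these lengths, overlapping peaks of a mark were merged over its lists, by at least 1 bp, and each merged element was classed by the lists that called it. H3K4me1 elements were mostly common to both genotypes. Of 345 in the 7 windows, 207 were called in all 4 lists, beside 61.8% of elements genome-wide. Only 4 were called in both RXRKO lists and no WT list (1.16%, against 2.17% of 181242 elements genome-wide), and 3 in both WT lists and no RXRKO list (0.870% against 1.94%). These 7 lay in the windows of Runx1, Erg, Fli1 and Gata2, measured 208 to 623 bp, and none was within 1 kb of a start. Tal1, Lyl1 and Lmo2 had none.

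**Figure D3:**
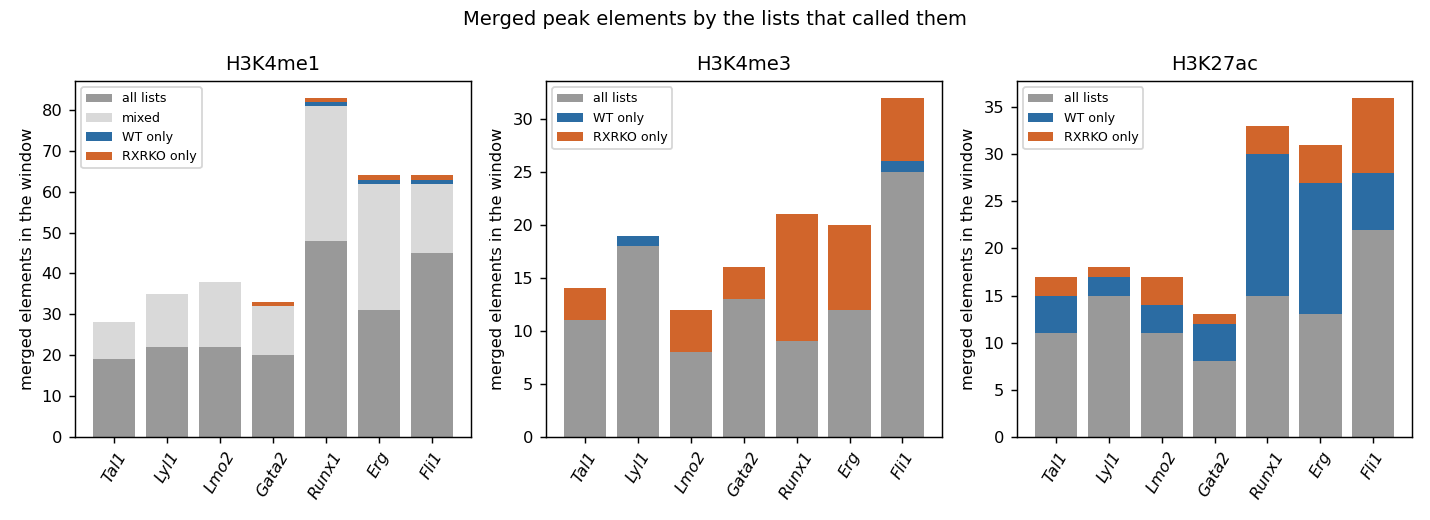
Number of merged peak elements in each heptad window, by mark, coloured by the lists that called them (grey for all lists, pale grey for mixed sets of H3K4me1 lists, blue for WT only, orange for RXRKO only). H3K27ac elements of WT only number 15 at Runx1 and 14 at Erg, and H3K4me3 elements of RXRKO only number 12 at Runx1 and 8 at Erg.

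For H3K27ac, 95 of 165 elements were called in both lists (57.6%, against 63.2% genome-wide), 48 in WT only (29.1%, against 23.9% genome-wide) and 22 in RXRKO only (13.3% against 13.0%). WT-only elements numbered 15 of 33 at Runx1 and 14 of 31 at Erg, together 45.3% of their 64 elements. These 2 genes were set apart after their shorter H3K27ac cover in the same lists had been seen, so the share restates that difference by sites. At the other 5 genes they were 19 of 101, or 18.8%. Fli1, the other large ETS gene, had 6 WT-only and 8 RXRKO-only elements of 36. Tal1 had 4 and 2 of 17, Gata2 4 and 1 of 13, Lmo2 3 and 3 of 17, and Lyl1 2 and 1 of 18. As genome-wide, elements of a single genotype were short and weakly called. WT-only elements had a median of 306.5 bp and a median -log10 q of 4.80, and RXRKO-only elements 312 bp and 4.36, against 661 bp and 12.4 for those in both lists. Over the genome these values were 318 bp and 4.72, 339 bp and 4.28, and 812 bp and 14.2. H3K4me1 was called in all 4 lists on 33 of the 48 WT-only elements, 14 of the 22 RXRKO-only elements and 80 of the 95 common elements. These shares were 68.8%, 63.6% and 84.2%, against 78.9%, 75.7% and 96.2% of such elements genome-wide, a difference that was not tested. With equal numbers of top peaks from both lists, 37 of 155 elements were WT only (23.9%, against 17.8% genome-wide) and 28 RXRKO only (18.1% against 17.6%).

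For H3K4me3 the split ran the other way, as it did genome-wide. Of 134 elements, 96 were called in both lists (71.6%, against 73.6% genome-wide), 36 in RXRKO only (26.9%, against 22.2%) and 2 in WT only (1.49% against 4.22%). Runx1 held 12 RXRKO-only elements of 21 and Erg 8 of 20, together 48.8% of 41. At the other 5 genes they were 16 of 93 (17.2%). The pair had been set apart by its H3K27ac cover, with its H3K4me3 cover in these same lists also seen. The centred log2 difference in H3K4me3 cover was 0.48 at Runx1 and 0.10 at Erg. At Runx1 the share restates that difference by sites, and the pooled share is not a separate result for the pair. The 36 RXRKO-only elements had a median length of 322.5 bp, and H3K4me1 was called in all 4 lists on 29 of them. The genome-wide share of such elements was not computed, so 29 of 36 is not read as particular to the heptad. With equal numbers of top peaks, 15 of 113 were RXRKO only (13.3%, against 10.9% genome-wide) and 11 WT only (9.73% against 9.69%). Among the RXRKO-only elements, the largest -log10 q was at Tal1, at -21.3 kb from the outermost start (chr4:115034831-115035512), an element singled out after its values were seen. It had an authors' fold of 8.72 and a -log10 q of 40.0, H3K4me1 in 4 of 4 lists, and H3K27ac over 273 bp in WT and 610 bp in RXRKO. The nearest WT H3K4me3 peak was 12251 bp away. At Runx1, chr16:92653901-92654291 had an authors' fold of 5.34 and a -log10 q of 16.5 in RXRKO, with the nearest WT H3K4me3 peak 32147 bp away and H3K27ac in both genotypes.

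**Figure D4:**
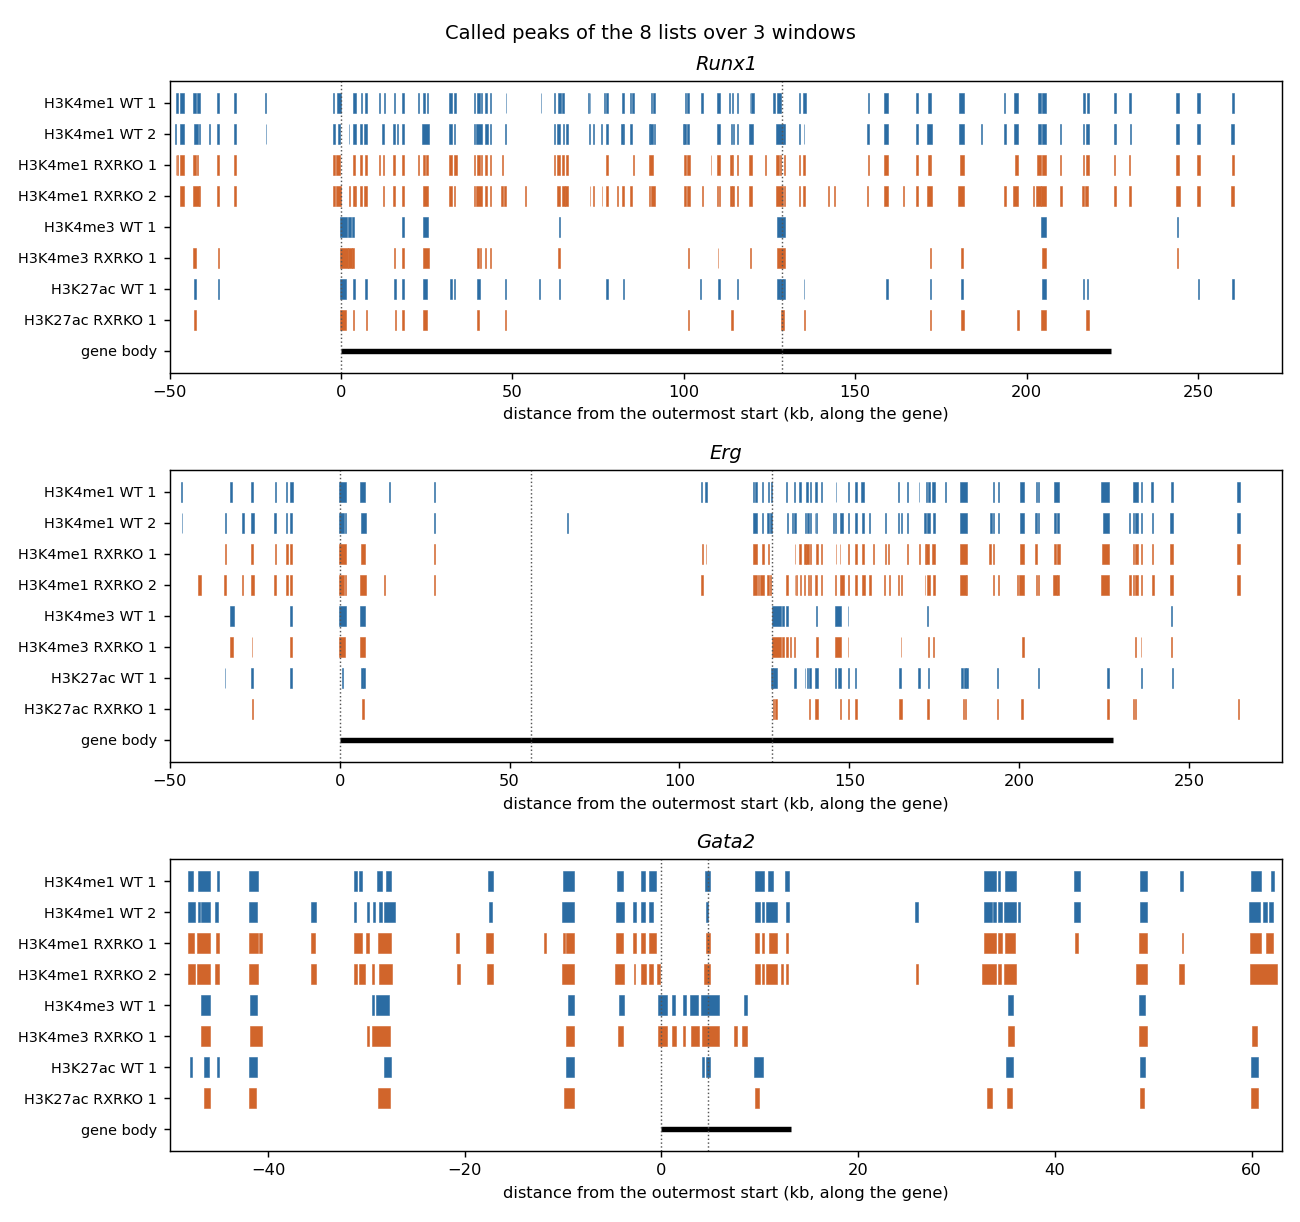
Called peaks (boxes) of the 8 lists over the windows of Runx1, Erg and Gata2, against distance in kb from the outermost start, along the direction of the gene; dotted lines mark the starts and the black bar the gene body. Between the outer and inner starts of Erg few peaks were called in any list, and the inner Gata2 start carries H3K27ac peaks in WT and none in RXRKO.

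Distal H3K27ac elements, those more than 1 kb from a start, numbered 40 in WT only and 20 in RXRKO only. Of these, 2 had a -log10 q of at least 10, both in WT only. WT-only elements were also the more common genome-wide (23.9% against 13.0%). The genome-wide share at this cut was not computed, so the 2 are not read as particular to the heptad. In the Runx1 gene body, chr16:92666649-92667203 lay 30.4 kb past the proximal start, with an authors' fold of 4.06 and a -log10 q of 11.3. H3K4me1 covered all 555 bp of it in all 4 lists, and the nearest RXRKO H3K27ac peak was 12321 bp away. In the Erg gene body, chr16:95415953-95416275 lay 43.2 kb past the inner start, with an authors' fold of 3.09 and a -log10 q of 13.9. H3K4me1 covered 203 bp of it in WT replicate 1 and 220 bp in RXRKO replicate 1 and was called in neither replicate 2 list. An RXRKO H3K27ac peak lay 2241 bp from it.

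The enhancers by which the heptad genes are known from earlier work carried marks in both genotypes. They are named by their distance in kb from a gene start, and elements within 2 kb of that distance from the annotated starts were taken, which may differ from the starts the names refer to. At Tal1, the -4, +19 and +40 enhancers, of which the last also drives expression in red cells, were called for all 3 marks in all lists. The merged H3K27ac element at +19 spanned 1770 bp (chr4:115074262-115076031; authors' folds 4.45 in WT and 3.79 in RXRKO) and at +40 it spanned 1750 bp (chr4:115095486-115097235; 4.15 and 4.08). At -4 it spanned 808 bp. At Lmo2, an element at -12.3 kb spanned 1703 bp (chr2:103944758-103946460; folds 4.29 in WT and 3.99 in RXRKO), and H3K27ac was also called in both genotypes near -25. At Runx1, the +23 enhancer, active in the first blood stem cells of the embryo, matched an H3K27ac element 24.5 kb inside the gene with folds of 4.37 in WT and 2.96 in RXRKO.

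At Gata2, the intronic +9.5 enhancer carried H3K27ac in both genotypes (chr6:88203271-88204180, folds 2.79 and 2.83) and H3K4me1 in all 4 lists. The H3K27ac peak there covered 910 bp in WT and 424 bp in RXRKO. Near the -3 site H3K4me1 was called and H3K27ac was not. The Erg +85 enhancer, counted from the middle start, which had no peak itself, matched an element at 84.0 kb with H3K27ac folds of 2.33 in WT and 2.27 in RXRKO. Counted from the inner start it matched an element at 83.6 kb (chr16:95374766-95376657) with H3K4me1 in all 4 lists and no H3K27ac within 2 kb. At Fli1, H3K27ac was called in both genotypes near +12 (13.5 kb; folds 2.91 and 2.77) and near -15 (at -16.7 kb; 2.50 and 2.30). Every named enhancer matched with H3K27ac in WT had it in RXRKO, apart from the Gata2 region near +3, where the acetylated peaks are those of the inner start.

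**Figure D5:**
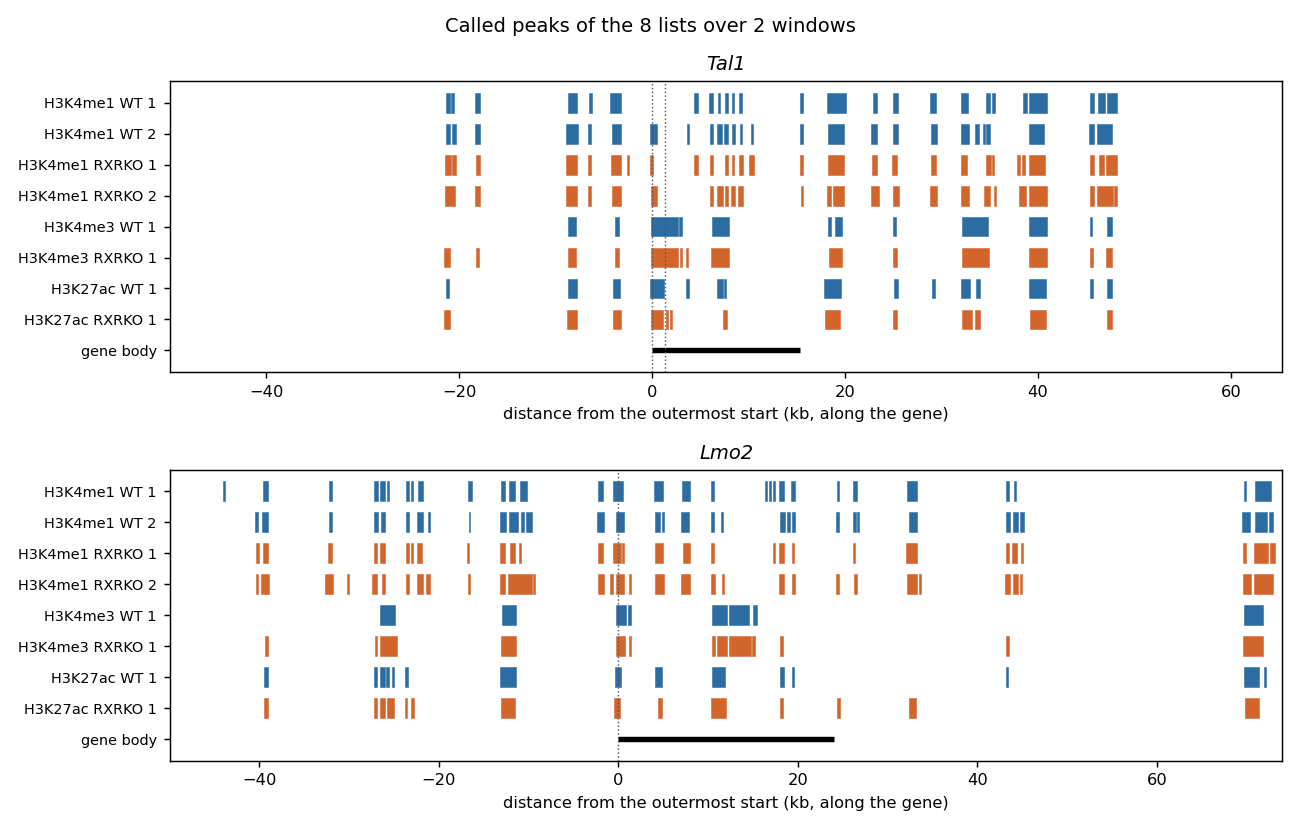
Called peaks (boxes) of the 8 lists over the windows of Tal1 and Lmo2, against distance in kb from the outermost start; dotted lines mark the starts and the black bar the gene body. Peaks near +19 and +40 at Tal1 and near -12 and -25 at Lmo2 appear in WT and RXRKO for H3K4me3 and H3K27ac.

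The 3 longest H3K27ac elements of each window were called in both genotypes, which the choice by length favours, since elements were merged over both lists. Besides those named above, Runx1 had one 76.3 kb past its proximal start, chr16:92620325-92621754, with the largest -log10 q of any H3K27ac element in the heptad windows (73.1 in WT and 69.0 in RXRKO, each within its own list). The other Runx1 elements were those at its starts, of 1891 and 1364 bp. Erg had elements of 1103 bp (chr16:95438966-95440068), 1011 bp and 963 bp, the last at the inner start. Fli1 had elements of 1369, 1220 and 1125 bp, of which the first lay 142.5 kb from the start and beyond the end of the gene. Gata2 had elements of 1308 and 988 bp at -28.1 and -9.39 kb from its outer start. At Lyl1 the longest, 1292 bp, lay at -44.6 kb, and elements of 886 and 822 bp lay inside the annotated body of the neighbour Nfix. The second Lmo2 element, 1690 bp, lay at the starts of 4931422A03Rik and Fbxo3, and the third Tal1 element, 1458 bp, at the Tal1 start itself.

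Clusters of H3K27ac peaks were summarised by joining peaks less than 12500 bp apart in each list and ranking the joined domains by acetylated bases. Ranks are given within each list and show no change between lists of different size. The domains differ in span between the lists, at Runx1 from 64239 bp in WT to 25552 bp in RXRKO. The largest domain touching Lmo2 ranked 46 of 31548 in WT and 3 of 31116 in RXRKO, with 13549 and 15436 acetylated bp. It reached beyond the 50 kb window upstream. Tal1 ranked 99 in WT and 62 in RXRKO, with 10836 and 10391 bp, and Fli1 446 and 73, with 7178 and 10075 bp. Lyl1 ranked 602 and 379, with 6571 and 6658 bp. Runx1 ranked 309 and 893, with 8109 and 4943 bp, and Erg 907 and 2794, with 5604 and 3053 bp. Gata2 ranked 9176 and 26632, with 1611 and 424 bp. Only the largest domain touching each gene body was taken, so these values depend on how peaks were joined. The Gata2 domain held 3 peaks in WT and 1 in RXRKO, while H3K27ac cover of the whole window was 6821 and 5964 bp. Fli1 was touched by 3 domains in WT and 2 in RXRKO, with window cover of 14774 and 14903 bp.

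Genes outside the heptad were compared only by their pattern. Over the 8 log2 covered lengths, the 5 genes nearest to the heptad median were Cdk5, Lrrc25, Srrm2, Arih2 and Csad, at Euclidean distances of 0.10 to 0.17. The heptad genes themselves lay 0.59 (Lmo2) to 2.18 (Runx1) from that median. Among 26 partners and relatives of the heptad proteins, such as the LMO2-binding Ldb1 and the RUNX1 partner Cbfb, limma called 0 for H3K4me1, with 11 above and 15 below 0 and a median of -0.0038, beside 9467 above and 9183 below among all genes tested. The most positive difference was at Spi1, which encodes the ETS factor PU.1 (0.14; adjusted p = 0.877 by limma), and the most negative, also the largest in size, at Lmo4 (-0.32; unadjusted p = 0.0141, adjusted p = 0.597 by limma). An H3K4me3 peak lay at a start in both genotypes for 25 of the 26, the exception being Gata1, the red-cell relative of Gata2, where it was called in WT only. H3K27ac was called at a start in both genotypes for 22 of the 26, and the shares over all genes were the 66.6% and 56.7% given above. No partner passed 1.5-fold for H3K4me3 or H3K27ac, and beside the heptad the partner list gave medians of 0.025 and 0.015 for these marks.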

How the data were processed

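Each deposited file is the narrowPeak list of 1 library. The submitters' processing notes name cutadapt 1.7.1, Bowtie2 2.2.5, MACS3 and mm10. The MACS3 version, any control and the treatment of duplicates: not given in the sources used here. Each deposited line holds the authors' score, a fold (the ratio of a peak's height to its local background) and -log10 p and -log10 q values. Folds and -log10 q describe peaks within a list and were not compared as amounts. Coordinates are 1-based. Gene bodies came from RefSeq GRCm38.p6 with 21631 protein-coding genes.

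Covered length (bp inside peaks, gene body plus 50 kb) was analysed for genes with a mean of at least 1000 bp, on a log2 scale after adding 1000 bp, with every library's median gene set to 0. H3K4me1 was tested with limma 3.58.1 in R 4.3.3 (lmFit, eBayes with trend, 2 against 2 libraries, no block), with Benjamini-Hochberg adjusted p under 0.05 as the threshold. H3K4me3 and H3K27ac have 1 library per genotype and were described by fold, with 1.5-fold as the threshold. Replicate numbers follow the sequencing run, which holds both genotypes. Across 18650 genes, which are not independent, the WT and RXRKO differences between replicates had a correlation of r = 0.21. Alternatives changed the peaks used, the window, the centring, the pseudocount, the filter, the block and the libraries. Named genes and elements were the 7 members, starts within 1 kb of a described element, the 3 longest H3K27ac elements per window, distal H3K27ac elements of a single genotype with a -log10 q of at least 10, the 5 genes nearest in pattern, and the extreme partners. The members and lists were chosen with earlier results of these data known. Marker genes, partners and named enhancers came from general knowledge. Sequencing depth is unknown, so no counting interval was computed.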

Additional observations from a re-analysis of the deposited data

How the results depend on the processing

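For H3K4me1, the count of genes called by limma rose from 0 to 2 with peaks of -log10 q of at least 5, to 53 without centring, to 178 without the filter and to 486 with the replicate block (304 longer and 182 shorter in RXRKO, with the limit of that fit given above). It was 0 under the other peak, window and pseudocount settings, and ran from 0 to 130 when single libraries were left out (18 without WT replicate 1, 130 without RXRKO replicate 1), with a lone library assumed to vary like the others. No heptad gene was called in any of these fits, though Lyl1 did not pass the filter with gene bodies only and was not tested there. H3K4me1 differences of heptad genes changed sign, that of Gata2, the largest, among them. With folds of at least 4, Erg became -0.31 and Gata2 -0.35. Without centring, Fli1 became 0.020 and Lmo2 0.028. Lyl1 became 0.019 with -log10 q of at least 5 and 0.053 with 20 kb flanks, where Tal1 became -0.028. Leaving out single libraries gave -0.022 to 0.096 for Tal1, -0.12 to 0.010 for Lyl1, -0.14 to 0.088 for Lmo2, -0.018 to 0.069 for Runx1, -0.093 to 0.023 for Fli1, 0.12 to 0.25 for Gata2 and 0.023 to 0.085 for Erg. Past 1.5-fold was 1 heptad gene for H3K4me3 without centring (Runx1, longer), 1 with folds of at least 4 (Erg, at -0.63), and 1 for H3K27ac with gene bodies only (Gata2, shorter). Differences below 1.5-fold in the marks with 1 library a genotype also changed sign. For H3K27ac, folds of at least 4 gave 0.47 at Gata2, -0.25 at Fli1, -0.19 at Lmo2 and -0.12 at Tal1, gene bodies only gave -0.23 at Lmo2 and -0.16 at Tal1, and no centring gave -0.055 at Tal1. For H3K4me3, equal numbers of top peaks gave -0.14 at Fli1 and -0.056 at Erg, gene bodies only gave -0.098 at Lmo2 and -0.045 at Tal1, 20 kb flanks gave -0.029 at Lmo2, and no centring gave 0.061 at Lyl1. With folds of at least 4, elements of RXRKO only and WT only numbered 0 and 6 of 57 for H3K4me1. They numbered 8 and 10 of 50 for H3K4me3, and 6 and 12 of 34 for H3K27ac. The WT-only shares, in that order of marks, were 10.5%, 20.0% and 35.3%, against 5.10%, 7.61% and 25.0% genome-wide. Those of RXRKO only were 0%, 16.0% and 17.6%, against 1.26%, 13.2% and 14.6%. The H3K4me3 split, mostly RXRKO only in the main setting, thus did not hold in the windows at this cut. With -log10 q of at least 5 there were 11 H3K27ac elements of RXRKO only and 5 H3K4me3 elements of WT only. Equal numbers of top peaks gave 15 and 11 for H3K4me3. With 20 kb flanks 1 H3K4me1 and 1 H3K4me3 element were WT only, and merging within 500 bp left 2 H3K4me1 elements of RXRKO only. Leaving out single libraries gave 10 to 27 H3K4me1 elements of RXRKO only and 8 to 19 of WT only, since a lone list then stood for its genotype. The H3K27ac difference of Lyl1 and of Erg could not be computed in some settings, where they did not pass the filter. For all other differences the cause was not tested.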
